A study of Mus musculus with 14 samples.

Results

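The libraries labelled E11.5 and E9.5 of the mouse aorta-gonad-mesonephros region (AGM) were compared across all measured genes. They are 4 libraries, 2 of each age, among 6 AGM libraries and 14 libraries in the whole study, and they were chosen by their titles. Per the labels, the libraries labelled E11.5 were made from the dissected AGM, and those labelled E9.5 from the rear part of the embryo, which holds the para-aortic splanchnopleura, the tissue that gives rise to the AGM. Every embryo was wild type and of the C57BL/6 strain, and no treatment is given. The other 2 AGM libraries, labelled E10.5 and dissected as AGM from embryos of the same strain, stand in the middle of the span and share the estimate of spread. Each age was sequenced once in a first round and once in a second. The second-round AGM columns are headed by a number and no age, and each was taken as the age that the first round attaches to that number. This is an assumption, and every second-round value below rests on it. Nothing in the labels tells whether both libraries of an age were made from different embryos. Levels of Xist, an RNA of female cells, differed widely between the 2 libraries labelled E9.5 and are given below. The p-values speak of the spread between libraries, which may be partly technical. Age and dissection changed together between the labelled groups and cannot be told apart.

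The AGM runs along the dorsal aorta of the trunk, between the mesonephros, a transient kidney, and the ridge that becomes the gonad. In mouse embryos the first blood stem cells bud there from the lining of the artery. Over the same days the tailbud, whose progenitors lengthen the body axis, dwindles, and Lin28a, whose protein binds RNA and keeps let-7 microRNAs from maturing, declines with its partners. Macrophages born in the yolk sac meanwhile spread through the embryo, red cells take up the adult globins, and the gonad, the adrenal cortex and the sympathetic neurons begin to form. These genes can be read for embryonic age apart from the labels, but their levels also depend on which tissue was dissected. They were chosen with earlier results of these data known.

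Total counts were 24820391 and 21527400 in the first-round and second-round libraries labelled E11.5, and 29534551 and 24335839 in those labelled E9.5. The libraries labelled E10.5 held 24513201 and 25818165 counts. Of 53465 genes in the table, 17613 passed the filter on low counts and were tested. Levels below are CPM, which are counts scaled to a common library size by TMM-adjusted totals, and are given for the first and then the second round. They are not corrected for gene length, so levels are compared between libraries and not between genes. A log2 change is that of the libraries labelled E11.5 over those labelled E9.5 in a fit with the round as a block, ± its SE, with n = 2 libraries of each age.

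Most genes differed between the ends of the span. edgeR's quasi-likelihood test with Benjamini-Hochberg adjustment under 0.05 called 10865 genes (61.7%), of which 5344 were higher (30.3% of those tested) and 5521 lower (31.3%) in the libraries labelled E11.5. A called change of 4-fold or more was found in 367 genes that were higher (2.08%) and in 1053 that were lower (5.98%). The median log2 change over all tested genes was -0.0040. With library totals in place of TMM scaling that median was -0.15, and 36.5% of calls were higher, against 49.2% in the scaled fit. Both libraries of one age lay above both of the other for 12753 tested genes (72.4%). Across tested genes, which are not independent replicates, the changes of the 2 rounds correlated at Pearson's r = 0.925 and Spearman's rho = 0.888, as a description.

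**Figure D1:**
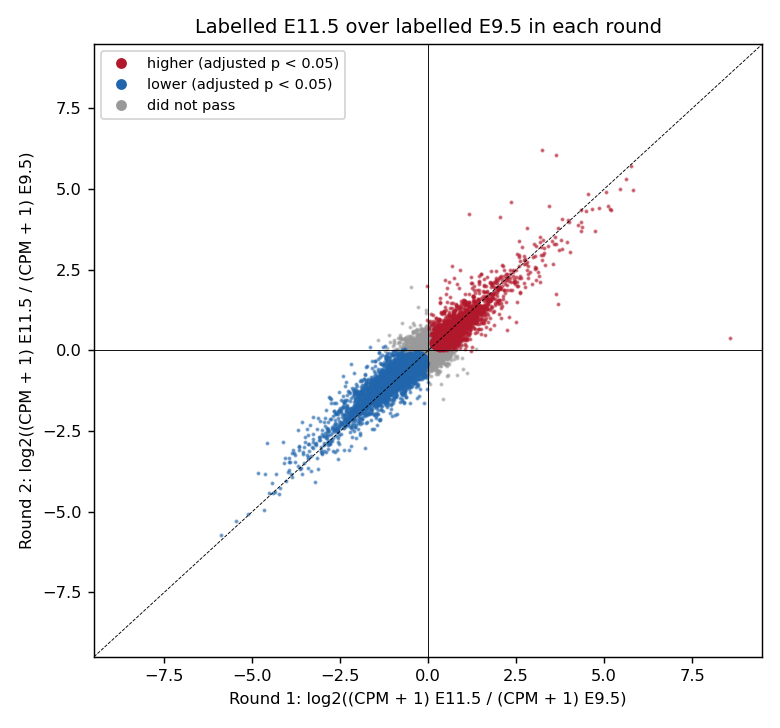
Each point is a tested gene. The x axis is the log2 ratio of CPM + 1 in the first-round library labelled E11.5 over that labelled E9.5, and the y axis is the same ratio in the second round. Red genes were called higher and blue genes lower in the libraries labelled E11.5, and grey genes did not pass. Points spread along the diagonal (r = 0.925 over all tested genes), and the lone red point at the far right is Xist.

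The libraries labelled E10.5 lay between the ends for most of these genes. Of the 10865 called genes, 9346 had an E10.5 mean between the other means (86%), 776 had it above both (7.14%) and 739 below both (6.8%). The middle place was found for 82.8% in the first round, 81.1% in the second, and for 7801 genes (71.8%) in both. Among the called genes of 4-fold or more, 1244 of 1420 (87.6%) had the E10.5 mean between. The steps were unequal. The E10.5 mean lay nearer to that of E9.5 for 8205 called genes (75.5%), and the same fit called 4237 genes (24.1%) for the libraries labelled E10.5 against E9.5 and 8491 (48.2%) for E11.5 against E10.5, comparisons that share the E10.5 libraries. Libraries labelled E11.5 and E9.5 correlated at r = 0.948 to 0.958, those labelled E10.5 and E9.5 at 0.984 to 0.993, and those labelled E11.5 and E10.5 at 0.969 to 0.974. The 2 rounds of an age correlated at 0.994, 0.995 and 0.994. Called genes were picked on the difference between the outer days, which favours a middle place for E10.5, and no such share was counted over all tested genes. By the correlations, which cover all tested genes, the 3 labelled ages formed an ordered series in each round. Its direction was read from genes of known timing.

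Read so, that direction ran against the labelled order of days, though age and dissection cannot be told apart in these libraries. The libraries labelled E11.5 held high Lin28a and tailbud RNA. They held high neural tube RNA too, which was not among the genes read for age. In them most genes of macrophages, of the gonad and of sympathetic neurons were lower, and Adgre1, Nr5a1 and Dbh were at or near 0. The libraries labelled E9.5 held the reverse. Of the tailbud genes that the rear of an E9.5 embryo is known to express, Tbx6, Msgn1 and Cdx2 were at 1.07 CPM or less. T was at 11.8 and 11.8 CPM there, and Lfng, Dll1 and Dll3 were present too, all below their levels in the libraries labelled E11.5. Tbx4 of the hindlimb field went the other way and was higher in the libraries labelled E9.5. Of the defining markers of the AGM, Nr5a1 of the gonad was at 0.0860 and 0 CPM in the libraries labelled E11.5. Wt1 and Gata4 of the gonad and coelomic epithelium, and Pax2, Pax8 and Osr1 of the mesonephros, were at 5.77 CPM or more there. All of these but Pax8 were called lower there than in the libraries labelled E9.5. Runx1, Cdh5 and Gja5 of the blood-forming aorta were present in all 6 libraries. Whether labels, tubes or table columns were exchanged was not tested. Ages below are those of the labels throughout. In bulk tissue, fewer cells of a type and less RNA per cell cannot be told apart, and this holds for every gene group that follows. The count of called members in each group stands beside 30.3% higher and 31.3% lower over all tested genes.

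Of 13 genes of embryonic timing, 12 were higher and 1 lower in the libraries labelled E11.5, beside 30.3% and 31.3% of all tested genes, with a median log2 change of 1.25. Lin28a (ENSMUSG00000050966, chr4:134003330-134018841, minus strand, GRCm38) had 610 and 519 CPM in the libraries labelled E11.5, against 21.9 and 39.1 CPM in those labelled E9.5, a log2 change of 4.24 ± 0.18 (adjusted p = 8.21e-10). The libraries labelled E10.5 had 122 and 127 CPM, so the level climbed at each labelled step. Lin28b, its close relative, had 233 and 235 CPM against 34.8 and 53.9 CPM (2.42 ± 0.11). Trim71, a let-7 target that keeps early progenitors dividing, had 205 and 176 CPM in the libraries labelled E11.5 and 35.2 and 43.4 CPM in those labelled E9.5 (2.28 ± 0.09). Sall4, a factor of pluripotent and early embryonic cells, changed by 2.14 ± 0.09, Mycn by 1.70 ± 0.06, Hmga1 by 1.503 ± 0.08 and the DNA methyltransferase gene Dnmt3b by 1.25 ± 0.08. The mRNA-binding proteins Igf2bp1, Igf2bp2 and Igf2bp3 changed by 0.86, 0.34 and 0.47. Hmga2, a chromatin protein gene that let-7 represses, was the lower one, at 902 and 897 CPM against 1131 and 1346 CPM (-0.46 ± 0.08). The E10.5 mean lay between for 12 of the 13, and above both for Igdcc3.

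The study's dorsal skin gives the course of the same genes in another tissue, as single libraries scaled by library totals and with no test. A second skin project covers the same 4 ages and was not read here. In the first skin project, all 13 timing genes were lower at E14.5 than at E9.5, and 12 of the 13 were lower at E10.5 than at E9.5. In order of age, from E9.5 over E10.5 and E12.5 to E14.5, Lin28a ran at 366, 84.6, 0.667 and 0.940 CPM. Trim71 ran at 250, 98.7, 8.04 and 4.16 CPM. Macrophage genes went the other way, with all 12 higher at E14.5 than at E9.5 and 10 of the 12 higher at E10.5. Cx3cr1 ran at 0.401, 4.93, 22.2 and 24.5 CPM over the same ages. In the AGM, the mean of the libraries labelled E11.5 lay above that of E9.5 for 12 of these 13 timing genes, and below it for all 12 macrophage genes. Tailbud genes had no such single course in skin. Of 16, 9 were higher and 7 lower at E10.5 than at E9.5, and 3 were higher and 12 lower at E14.5 than at E9.5. Of the 9, Tbx6, Cdx4, Hes7, Mesp2 and Ripply2 stayed at 0.616 CPM or less at E9.5 and E10.5, near the floor. Msgn1, counted as lower, was near the floor too. Above it, Wnt3a, Lfng, Dll1 and Dll3 were higher at E10.5, and T, Fgf8, Cdx1, Cdx2, Nkx1-2 and Cyp26a1 were lower. The Notch ligand gene Dll3 ran at 24.3, 85.9, 6.87 and 0.448 CPM and Wnt3a at 10.49, 14.4, 4.71 and 11.6 CPM over the 4 ages. In the AGM, each of the 16 had a higher mean in the libraries labelled E11.5 than in those labelled E9.5.

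**Figure D2:**
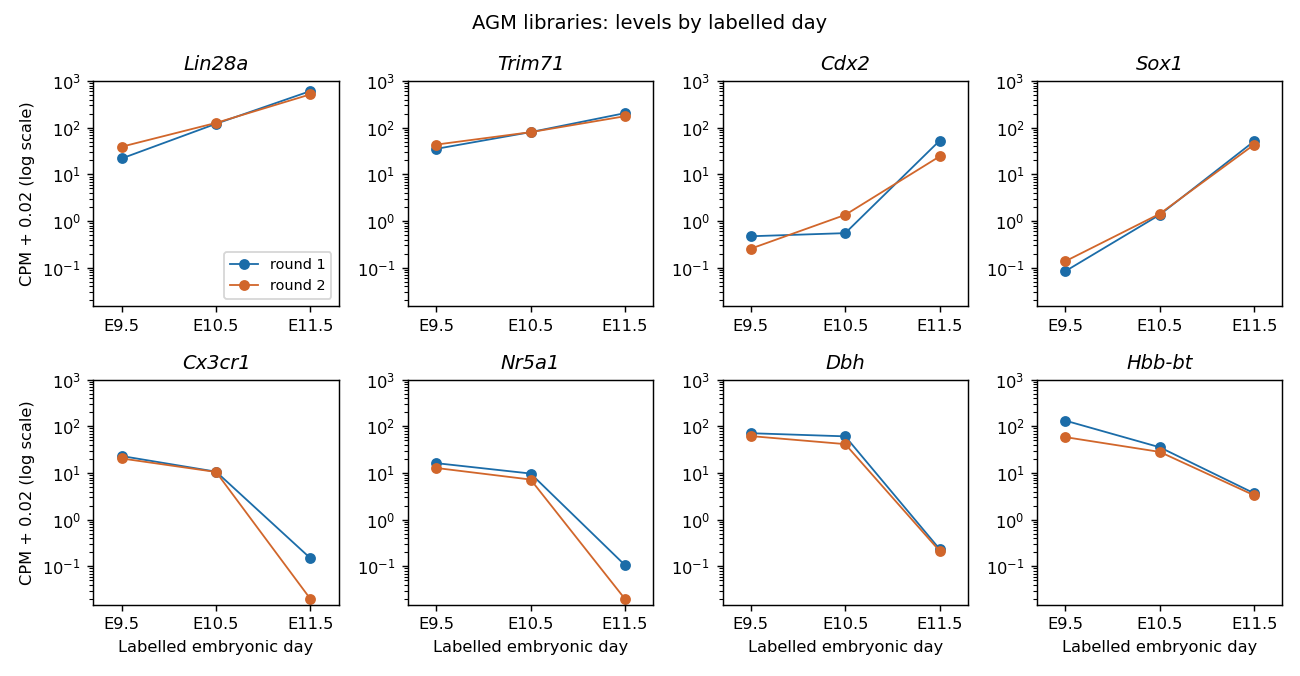
CPM + 0.02 on a log axis against the labelled day for 8 genes in the 6 AGM libraries, with a point for each library and a line for each round. The timing genes Lin28a and Trim71, the tailbud gene Cdx2 and the neural tube gene Sox1 climb over the labelled days in both rounds, and the macrophage gene Cx3cr1, the gonad gene Nr5a1, the sympathetic gene Dbh and the adult globin gene Hbb-bt decline.

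Tailbud and presomitic mesoderm genes were higher in the libraries labelled E11.5 in 16 of 16 cases, 15 of them by 4-fold or more, with a median log2 change of 4.43. Their summed level was 487 and 317 CPM in the libraries labelled E11.5, against 45.7 and 43.5 CPM in those labelled E9.5. Cdx4 (ENSMUSG00000031326, chrX:103321398-103330592, plus strand), a homeobox gene of the growing axis, had 55.4 and 30.5 CPM against no count in both libraries labelled E9.5, which makes it at least 822-fold higher, with the floor set by 3 counts over the group. Its relative Cdx2 had 52.6 and 24.2 CPM in the libraries labelled E11.5, against 0.452 and 0.236 CPM in those labelled E9.5. The log2 change of Cdx2 was 6.75 ± 0.35 (adjusted p = 5.3e-09), and it was 5.78 without the first-round and 7.49 without the second-round library labelled E11.5. Nkx1-2, a marker of axial progenitors, had 40.7 and 23.4 CPM against 0.161 and 0.157 CPM (7.63 ± 0.24). The ligand gene Wnt3a, which sustains those progenitors, had 529 counts in the libraries labelled E11.5 and 1 count in those labelled E9.5, a ratio of 681 (95% counting interval 122 to 26938.5). None of these 4 genes overlapped between the ages, which was so for 72.4% of all tested genes. The first-round library labelled E11.5 was the higher of its pair in each of the 4.

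Presomitic mesoderm genes followed. Tbx6, which sets paraxial mesoderm apart from neural fate, had 23.3 and 11.03 CPM in the libraries labelled E11.5, against 1.07 and 0.866 CPM in those labelled E9.5 (4.13 ± 0.21, adjusted p = 4.31e-09). Msgn1, which lets presomitic cells mature, had 249 counts against 1 count, a ratio of 320 (57.0 to 12706.5). The segmentation clock repressor gene Hes7 had 9.64 and 5.15 CPM in the libraries labelled E11.5, and 0.194 and 0.236 CPM in those labelled E9.5 (5.10 ± 0.31, and 4.40 without the first-round library labelled E9.5). The Notch ligand gene Dll1 had 105 and 87.9 CPM against 9.85 and 9.88 CPM (3.29 ± 0.13). T, a gene of the notochord and tailbud, was the member under 4-fold, at 46.0 and 21.1 CPM against 11.8 and 11.8 CPM (1.46 ± 0.21, and 0.83 without the first-round library labelled E11.5). The E10.5 mean was between for 12 of the 16 genes and below both for 4, and the summed level of the libraries labelled E10.5 was 64.7 and 69.2 CPM, close to that of E9.5.

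Neural progenitor genes were higher in 12 of 14 cases, 10 of them by 4-fold or more, lower in 1 and not past the test in 1, with a median of 5.17. Sox1, which marks the dividing cells of the neural tube, had 51.3 and 43.4 CPM in the libraries labelled E11.5, against 0.0646 and 0.118 CPM in those labelled E9.5 (8.99 ± 0.21, adjusted p = 8.38e-12). The libraries labelled E10.5 had 1.35 and 1.41 CPM of it. Pax6, of the intermediate and dorsal neural tube, had 61.9 and 70.4 CPM against 0.161 and 0.354 CPM (8.02 ± 0.19). Olig2, of the motor neuron progenitors, had 30.1 and 25.9 CPM in the libraries labelled E11.5 and 0.226 and 0.275 CPM in those labelled E9.5 (6.80 ± 0.20). Hes5, a Notch target that keeps progenitors from differentiating, changed by 6.41 ± 0.26. Shh, the ventral signal that gut and notochord make as well, was lower, at 20.7 and 16.3 CPM against 28.1 and 22.9 CPM (-0.46 ± 0.13, adjusted p = 0.00756, and 0.055 without the round as a block). Pax7 had 7.23 and 7.68 CPM against 6.78 and 9.01 CPM and did not pass.

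Further genes of the neural tube were among the 12 largest increases, as was Nepn, which is not counted with them here. Prdm13, a factor of inhibitory neurons, had 8.002 and 10.4 CPM in the libraries labelled E11.5 and no count in those labelled E9.5, so it was at least 171-fold higher. Wnt1, the roof plate ligand gene, had 7.06 and 8.80 CPM and likewise no count in those labelled E9.5, and was at least 148-fold higher. DESeq2 gave adjusted p-values of 0.0583 for Prdm13 and 0.0643 for Wnt1. Msx3, a homeobox gene of the dorsal tube, had 1110 counts against 1 count, a ratio of 1428 (256 to 56470). Olig3, of dorsal progenitors, had 648 counts against 2 (ratio 417, 115 to 3450), and Hes3, a repressor of neuronal differentiation, had 734 against 3 (ratio 315, 107 to 1530). Foxb1, a forkhead factor of the neural tube, had 29.0 and 23.7 CPM in the libraries labelled E11.5, against 0.0323 and 0.157 CPM in those labelled E9.5. Nepn, whose protein is a secreted leucine-rich repeat protein, had 34.2 and 32.9 CPM against 0.0646 and 0.118 CPM, and 2.18 CPM in the second-round library labelled E10.5.

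Genes of macrophages were lower in 11 of 11 tested cases, 10 of them by 4-fold or more, with a median of -6.27. Their summed level over all 12 listed genes was 7.57 and 9.23 CPM in the libraries labelled E11.5, against 164 and 150 CPM in those labelled E9.5. The libraries labelled E10.5 had 71.2 and 64.1 CPM, and the E10.5 mean was between for each of the 11. Adgre1, which encodes the surface protein F4/80, had no count in the libraries labelled E11.5, against 8.04 and 6.30 CPM in those labelled E9.5, and was at least 106-fold lower. Of the complement subunit genes, C1qc had no count against 11.3 and 11.45 CPM and was at least 166-fold lower, C1qb had 2 counts against 823 (ratio 320, 88.2 to 2645), and C1qa had 1 against 431 (ratio 335, 59.8 to 13259). Cx3cr1, the chemokine receptor of microglia and tissue macrophages, had 0.129 and 0 CPM against 23.1 and 20.5 CPM. Csf1r, the receptor that keeps macrophages alive, had 1.55 and 1.604 CPM in the libraries labelled E11.5, and 34.4 and 27.9 CPM in those labelled E9.5 (-4.31 ± 0.14, adjusted p = 1.12e-10). Fcrls, a gene of microglia in mice, had 1 count against 555 (ratio 431, 77.1 to 17064.9). The smallest change was that of the lysosomal gene Cd68 (-0.57 ± 0.16), whose adjusted p was 0.0549 without the first-round library labelled E9.5 and 0.0849 with DESeq2.

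The start regions of 9 tested macrophage genes are held by RefSeq (GRCm38.p6), as 10 promoters of 250 bases before to 50 after the start of the gene. The core site of PU.1, the myeloid factor that Spi1 encodes, was searched as GAGGAAGT on both strands, and it lay in 2 of the 10, those of C1qc and F13a1, against 3.2% of all 32851 promoters. The promoter of C1qc is shown because the gene went to no count, with the site in capitals. It lies on chr4:136892865-136893164, minus strand, and the site is on the strand opposite to the gene, so it reads as its complement, 195 bases before the start.
C1qc: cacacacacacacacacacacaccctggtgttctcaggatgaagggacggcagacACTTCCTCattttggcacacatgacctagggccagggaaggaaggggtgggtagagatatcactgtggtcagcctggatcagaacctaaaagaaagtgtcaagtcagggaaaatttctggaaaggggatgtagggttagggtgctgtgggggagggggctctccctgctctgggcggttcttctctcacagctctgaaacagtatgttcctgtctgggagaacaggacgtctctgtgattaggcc
Spi1 itself had 0.172 and 0.340 CPM in the libraries labelled E11.5, against 5.13 and 4.33 CPM in those labelled E9.5 (-4.21 ± 0.32, and -4.84 without the second-round library labelled E11.5).

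Coelomic, gonad and adrenal genes were lower in 11 of 13 tested cases, 7 of them by 4-fold or more, and 2 did not pass, with a median of -2.48. Nr5a1 (ENSMUSG00000026751, chr2:38692656-38714542, minus strand) encodes SF-1, the factor on which gonad and adrenal cortex depend. It had 2 counts in the libraries labelled E11.5 and 828 in those labelled E9.5, a ratio of 322 (88.8 to 2661), with 9.71 and 7.22 CPM in the libraries labelled E10.5. Wt1, of the coelomic epithelium, the gonad and the kidney, had 9.47 and 9.28 CPM against 111 and 99.6 CPM (-3.49 ± 0.07, adjusted p = 4.56e-12). Amhr2, the receptor for anti-Müllerian hormone, had 0.129 and 0.243 CPM in the libraries labelled E11.5, against 11.01 and 6.65 CPM in those labelled E9.5 (-5.56 ± 0.31, with -4.76 without the first-round and -6.35 without the second-round library labelled E11.5). Cyp11a1, the first enzyme of steroid hormone synthesis, had no count against 1.10 and 1.14 CPM, and was at least 16.3-fold lower. Gata4 changed by -1.19 ± 0.10, Lhx9 by -2.48 ± 0.19 and Tcf21 by -2.56 ± 0.12, all factors of the early gonad or its neighbouring mesenchyme. Star, at 6.67 and 6.61 CPM against 7.17 and 7.08 CPM, and Upk3b, at 12.99 and 16.6 CPM against 18.8 and 14.3 CPM, did not pass (Upk3b -0.56, adjusted p = 3.77e-04, without the second-round library labelled E11.5).

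The SF-1 site, searched as CAAGGTCA on both strands, lay in 1 of the 10 promoters that RefSeq holds for 9 tested genes of this group, that of Amhr2, against 1.56% of all promoters. It is shown with the site in capitals, 232 bases before the start, on chr15:102445117-102445416, plus strand.
Amhr2: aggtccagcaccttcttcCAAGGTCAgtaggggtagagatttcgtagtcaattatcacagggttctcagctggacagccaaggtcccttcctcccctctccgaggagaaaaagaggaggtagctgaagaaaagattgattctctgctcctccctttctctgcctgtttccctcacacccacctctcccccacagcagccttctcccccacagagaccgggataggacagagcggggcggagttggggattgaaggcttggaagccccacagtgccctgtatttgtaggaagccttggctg
Each match is a description of the letters in that window and not a site shown to be bound.

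Mesonephros and intermediate mesoderm genes were lower in 9 of 14 cases, higher in 2 and not past in 3, with a median of -1.34. Cdh16, a cadherin of the kidney tubule, had no count in the libraries labelled E11.5, against 14.6 and 12.2 CPM in those labelled E9.5, and was at least 197-fold lower. Wnt9b, the duct signal that induces nephrons, had 1.68 and 1.36 CPM against 12.1 and 10.7 CPM (-2.90 ± 0.17). Pax2, needed by duct and nephron, had 9.38 and 6.80 CPM against 22.7 and 19.5 CPM (-1.39 ± 0.11), and its E10.5 mean was above both, at 28.8 and 22.4 CPM. Gdnf, the signal for ureteric budding, changed by -1.91 ± 0.18, Six2 of nephron progenitors by -2.26 ± 0.13 and Osr1 of early kidney mesoderm by -1.78 ± 0.10. The higher genes were Sall1, at 246 and 187 CPM against 44.0 and 41.1 CPM, and Lhx1, at 13.3 and 11.4 CPM against 5.55 and 4.53 CPM, both also genes of the neural tube. Pax8, at 5.77 and 7.44 CPM against 7.88 and 6.73 CPM, overlapped between the ages and did not pass.

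Sympathoadrenal and neural crest genes were lower in 10 of 14 cases, higher in 1 and not past in 3, with a median of -1.05. Dbh (ENSMUSG00000000889, chr2:27165233-27183200, plus strand), the enzyme that makes noradrenaline, had 0.215 and 0.194 CPM in the libraries labelled E11.5, against 71.2 and 61.7 CPM in those labelled E9.5 (-8.32 ± 0.19, adjusted p = 6.61e-12). The libraries labelled E10.5 had 61.01 and 41.6 CPM, close to those labelled E9.5. Th, the preceding enzyme, had 1.25 and 1.26 CPM against 19.7 and 16.02 CPM (-3.83 ± 0.17), and the granule gene Chgb had 2.02 and 1.70 CPM against 22.8 and 22.5 CPM (-3.60 ± 0.15). Sox10 of migrating crest and glia changed by -0.92 ± 0.09. Tfap2a, of the early crest and the surface ectoderm, was the higher one, at 13.2 and 15.3 CPM against 7.65 and 8.38 CPM (0.83 ± 0.14).

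**Figure D3:**
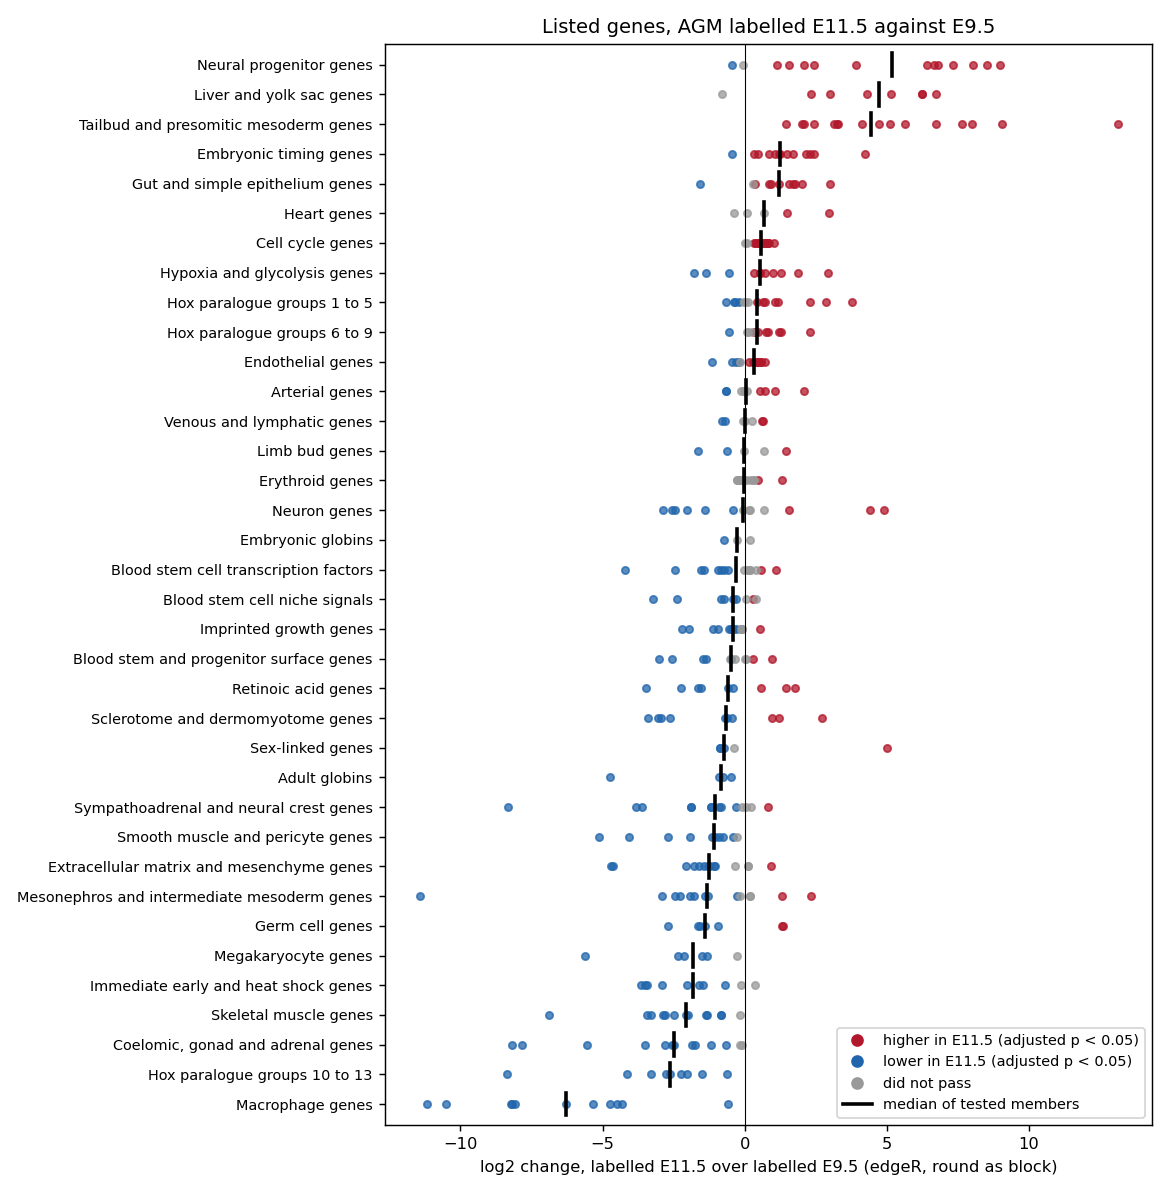
Log2 change of the libraries labelled E11.5 over those labelled E9.5 for the tested members of 36 gene lists, with the lists ordered by their median, which the black bar marks. Red members were called higher, blue members lower, and grey members did not pass. Neural progenitor, liver and yolk sac, and tailbud genes stand at the top, and macrophage genes at the bottom.

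Adult globin and platelet genes were lower in the libraries labelled E11.5. Adult globins were lower in 4 of 4 cases, with a median of -0.85 (2 of 4 without the block, with DESeq2, or without the first-round library labelled E11.5). Hbb-bt, an adult beta globin, had 3.66 and 3.30 CPM in the libraries labelled E11.5, against 132 and 58.7 CPM in those labelled E9.5 (-4.74 ± 0.21, adjusted p = 1.1e-09), with 35.5 and 28.3 CPM at E10.5. Its near-identical neighbour Hbb-bs had 15.9 and 13.7 CPM against 28.4 and 14.52 CPM (-0.49 ± 0.15), and the division of reads between the 2 is uncertain, as it is between Hba-a1 and Hba-a2. The call of Hbb-bs was lost without the first-round library labelled E9.5 (adjusted p = 0.272) or that labelled E11.5 (0.393), in the fit without the block (0.208) and in the fit of the 4 libraries alone (0.0559). Hba-a1 had 180 and 203 CPM against 513 and 258 CPM (-0.92 ± 0.18, and adjusted p = 0.0696 with DESeq2). Of 3 embryonic globins, Hbb-y was lower, at 3433 and 4718 CPM against 9060 and 4984 CPM (-0.72 ± 0.20), but not without the first-round library labelled E11.5 (-0.18, adjusted p = 0.264), without the block (0.0532) or with DESeq2 (0.26), and 2 did not pass. The embryonic median was -0.26, and above 0 without the first-round library labelled E11.5 (0.21) or E9.5 (0.068).

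Of 13 erythroid genes, 2 were higher, Tfrc and Gata1, and 11 did not pass, with a median of -0.022 and summed levels of 1116 and 1287 CPM in the libraries labelled E11.5, against 1328 and 807 CPM in those labelled E9.5. Those counts hung on single libraries. They were 9 higher and 0 lower without the first-round library labelled E9.5, 10 and 0 without the first-round library labelled E11.5, 2 and 8 without the E9.5-labelled second-round library, and 1 and 8 without the second-round library labelled E11.5. The median was above 0 without either first-round library (0.40 for that labelled E11.5 and 0.30 for that labelled E9.5) and with DESeq2 (0.0070). The transferrin receptor gene Tfrc had 370 and 433 CPM against 155 and 164 CPM (1.33 ± 0.07). Gata1, the factor that red cells and platelets depend on, had 21.1 and 23.2 CPM against 19.4 and 12.7 CPM (0.48 ± 0.15, adjusted p = 0.0125). Its call was lost without the block (0.142), with library totals (0.0926), in the fit of the 4 libraries alone (0.06) and without the second-round library labelled E11.5 (0.349), and its log2 change was 0.85 without the first-round library labelled E11.5. Megakaryocyte genes were lower in 5 of 6 cases, with a median of -1.81 (3 of 6 with DESeq2, or without either first-round library). Ppbp, a platelet granule protein gene, had 0.258 and 0.146 CPM in the libraries labelled E11.5, against 13.4 and 7.16 CPM in those labelled E9.5 (-5.62 ± 0.27), and Pf4 had 3.01 and 3.06 CPM against 18.1 and 8.97 CPM (-2.13 ± 0.21).

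Beside 31.3% lower and 30.3% higher over all tested genes, transcription factor genes of blood stem cells were lower in 8 of 16 cases. Of the 16, 2 were higher and 6 not past, with a median of -0.30. Without the first-round library labelled E11.5, 5 were higher and 8 lower, and without that labelled E9.5, 4 and 7. Runx1, which the endothelium needs to make blood, had 4.17 and 4.76 CPM in the libraries labelled E11.5, against 10.1 and 7.20 CPM in those labelled E9.5 (-0.94 ± 0.19, adjusted p = 7.19e-04). Gata2, its partner in stem cells and a gene of neurons and the urogenital tract too, had 7.87 and 5.83 CPM against 45.6 and 29.5 CPM (-2.45 ± 0.11). Mecom had 36.1 and 36.5 CPM against 99.2 and 113 CPM (-1.54 ± 0.06), Fli1 changed by -1.43 ± 0.08 and Myb by -0.85 ± 0.16. Lmo2, which bridges the stem cell factors, was higher, at 33.9 and 28.5 CPM against 16.2 and 13.1 CPM (1.08 ± 0.10). Gfi1b was the other, at 8.39 and 9.33 CPM against 7.52 and 4.53 CPM (0.58 ± 0.19), and its call was lost in the fit without the block (adjusted p = 0.151), with DESeq2 (0.0503), with library totals (0.095), in the fit of the 4 libraries alone (0.072) and without the E9.5-labelled second-round library (0.101) or E11.5 (0.425).

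Surface genes of blood stem and progenitor cells were lower in 5 of 11 tested cases, higher in 2 and not past in 4, with a median of -0.49 (3 lower with DESeq2 or without the first-round library labelled E9.5). Over all tested genes 31.3% were lower and 30.3% higher, so the lower count of 3 of 11 is no more than that share. Ptprc, the pan-leukocyte gene that encodes CD45, had 0.258 and 1.51 CPM in the libraries labelled E11.5, against 7.71 and 6.02 CPM in those labelled E9.5 (-3.03 ± 0.39, with -2.14 without the first-round and -4.76 without the second-round library labelled E11.5). Procr, a receptor on stem cells and endothelium, had 1.16 and 1.46 CPM against 3.84 and 3.38 CPM (-1.47 ± 0.24). Kit, the stem cell factor receptor, had 52.3 and 42.9 CPM against 49.6 and 41.9 CPM and did not pass. Csf2rb, a shared cytokine receptor subunit, was higher, at 41.3 and 43.5 CPM against 26.8 and 16.8 CPM (0.98 ± 0.13). Signals of the stem cell niche were lower in 6 of 9 tested cases, higher in 1 and not past in 2, with a median of -0.40 (4 lower without the block). Cxcl12, the chemokine that holds stem cells in place, had 151 and 146 CPM in the libraries labelled E11.5, against 816 and 728 CPM in those labelled E9.5 (-2.37 ± 0.06). Igf1 had 12.48 and 11.6 CPM against 111 and 112 CPM (-3.21 ± 0.07, adjusted p = 5.18e-12), and the aortic signal gene Bmp4 had 31.1 and 28.3 CPM against 52.3 and 46.0 CPM (-0.73 ± 0.08). Kitl, the ligand of Kit, was higher by 0.29 ± 0.06, a call lost with library totals (adjusted p = 0.0589).

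Of 15 endothelial genes, 10 were higher, 4 lower and 1 not past, and the median was 0.32. These were 3 higher and 3 lower in the fit without the block, and 6 and 3 with DESeq2, 6 and 4 without the first-round library labelled E11.5, and 6 and 5 with library totals. Cdh5, the cadherin of endothelial junctions, had 121 and 88.5 CPM in the libraries labelled E11.5, against 106 and 82.4 CPM in those labelled E9.5. Its log2 change was 0.15 ± 0.06 (adjusted p = 0.0308), and the call was lost in the fit without the block (0.532), with DESeq2 (0.0802), with library totals (0.948) and without the first-round library labelled E9.5 (0.0614) or E11.5 (0.343). Vwf, of mature endothelium and platelets, had 28.1 and 20.3 CPM against 73.9 and 37.0 CPM (-1.16 ± 0.11). Of 10 arterial genes, 4 were higher, 2 lower and 4 not past, with a median of 0.045 that was below 0 without the E9.5-labelled second-round library (-0.087) and with library totals (-0.10). Cxcr4, the Cxcl12 receptor of arterial tips and of many progenitors, had 29.6 and 31.4 CPM against 7.65 and 6.61 CPM (2.09 ± 0.12), and Gja5, the gap junction gene of arteries, had 18.8 and 14.48 CPM against 19.9 and 13.8 CPM and did not pass. Of 7 venous and lymphatic genes, 2 were higher, 2 lower and 3 not past, with a median of 0.014 that was below 0 without the first-round library labelled E11.5 (-0.0015), without the second-round libraries labelled E11.5 (-0.039) and E9.5 (-0.10), with library totals (-0.13) and with no filter on low counts (-0.0012). The arterial and venous counts lie near the share over all tested genes, which was 30.3% higher and 31.3% lower. Smooth muscle and pericyte genes were lower in 9 of 10 cases and not past in 1, with a median of -1.10. Myh11, the myosin of mature smooth muscle, had 0.430 and 0.583 CPM against 11.6 and 5.75 CPM (-4.08 ± 0.28, and -3.40 without the first-round library labelled E11.5), and Cspg4, the pericyte proteoglycan NG2, had 1.03 and 0.826 CPM against 39.9 and 25.03 CPM (-5.11 ± 0.17).

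Hox genes, which lie in order along their clusters and switch on from the front to the rear of the body axis, split by paralogue group. Those of groups 10 to 13, the last to switch on, were lower in 9 of 9 tested cases, 7 of them by 4-fold or more, with a median of -2.64 and the E10.5 mean between in each. Hoxd13 had 2.75 and 0.729 CPM in the libraries labelled E11.5, against 33.7 and 28.1 CPM in those labelled E9.5 (-4.14 ± 0.22, and -5.24 without the first-round library labelled E11.5). Hoxd12 had 2 counts against 914 (ratio 355, 98.0 to 2937). Hoxa13 had 1.85 and 1.41 CPM against 11.1 and 11.4 CPM (-2.78 ± 0.18), and Hoxa10 had 21.04 and 11.9 CPM against 41.4 and 50.1 CPM (-1.496 ± 0.18). Groups 6 to 9 were higher in 8 of 12 cases, lower in 1 and not past in 3, with a median of 0.42 (5 higher without the first-round library labelled E11.5 or with library totals, and 11 without either second-round library). Hoxb9 had 229 and 209 CPM against 41.3 and 47.5 CPM (2.31 ± 0.07). Groups 1 to 5 were higher in 8 of 15 cases, lower in 4 and not past in 3, with a median of 0.43. The lower count was 1 in the fit without the block or without the E9.5-labelled second-round library, and 2 with DESeq2 or without the second-round library labelled E11.5. Hoxb1, among the first to switch on, had 50.4 and 37.2 CPM in the libraries labelled E11.5, against 2.94 and 3.46 CPM in those labelled E9.5 (3.78 ± 0.14). Tbx4, the gene of the hindlimb field, had 7.49 and 3.99 CPM against 16.2 and 19.5 CPM (-1.64 ± 0.20). Pitx1, another hindlimb gene, went the other way, at 38.3 and 28.1 CPM in the libraries labelled E11.5, against 7.36 and 17.6 CPM in those labelled E9.5 (1.45 ± 0.29, adjusted p = 6.71e-04). Its log2 change was 0.67 without the first-round and 2.38 without the second-round one of the E9.5-labelled libraries, and its adjusted p was 0.0505 with DESeq2. Of 5 limb bud genes 1 was higher, 2 lower and 2 not past, beside 30.3% higher and 31.3% lower over all tested genes. The median of the 5 was -0.015, which was above 0 without the second-round library labelled E11.5 (0.030) or E9.5 (0.043).

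Somites, the blocks of paraxial mesoderm, give rise to cartilage, dermis and muscle. Of 10 sclerotome and dermomyotome genes, 3 were higher and 7 lower, with a median of -0.64. Pax3, of the early dermomyotome and the dorsal neural tube, had 48.8 and 57.5 CPM in the libraries labelled E11.5, against 4.49 and 12.6 CPM in those labelled E9.5 (2.73 ± 0.19, and 3.35 without the E9.5-labelled second-round library). Meox1, of the young somite, had 177 and 201 CPM against 60.8 and 108 CPM (1.21 ± 0.11). Pax1 and Pax9 of the cartilage-forming sclerotome changed by -2.61 ± 0.06 and -3.06 ± 0.10, and Scx, of tendon precursors, by -2.93 ± 0.21. Skeletal muscle genes were lower in 12 of 13 tested cases and not past in 1, with a median of -2.07. Myod1, which commits cells to muscle, had 3 counts against 489, a ratio of 127 (43.1 to 616), and Myh3, an embryonic muscle myosin, had 6.28 and 7.34 CPM against 34.0 and 70.7 CPM (-2.88 ± 0.16). For 10 of the 13 the E10.5 mean lay above both ends, with 76.7 and 103 CPM for Myh3. Neuron genes were higher in 3 of 13 cases (5 without the first-round library labelled E9.5), lower in 6 and not past in 4, with a median of -0.046, which was 0.17 without the first-round library labelled E11.5 and 0.057 without X and Y genes. Over all tested genes, 30.3% were higher and 31.3% lower. The proneural genes Neurog1 and Neurog2 were higher by 4.89 ± 0.28 and 4.42 ± 0.29 (3.67 and 5.72 for Neurog2 without the first-round and without the E9.5-labelled second-round library). The neurofilament gene Nefm of differentiated neurons had 18.6 and 22.3 CPM in the libraries labelled E11.5, against 156 and 146 CPM in those labelled E9.5 (-2.89 ± 0.08), and the E10.5 mean lay above both ends for 9 of the 13.

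**Figure D4:**
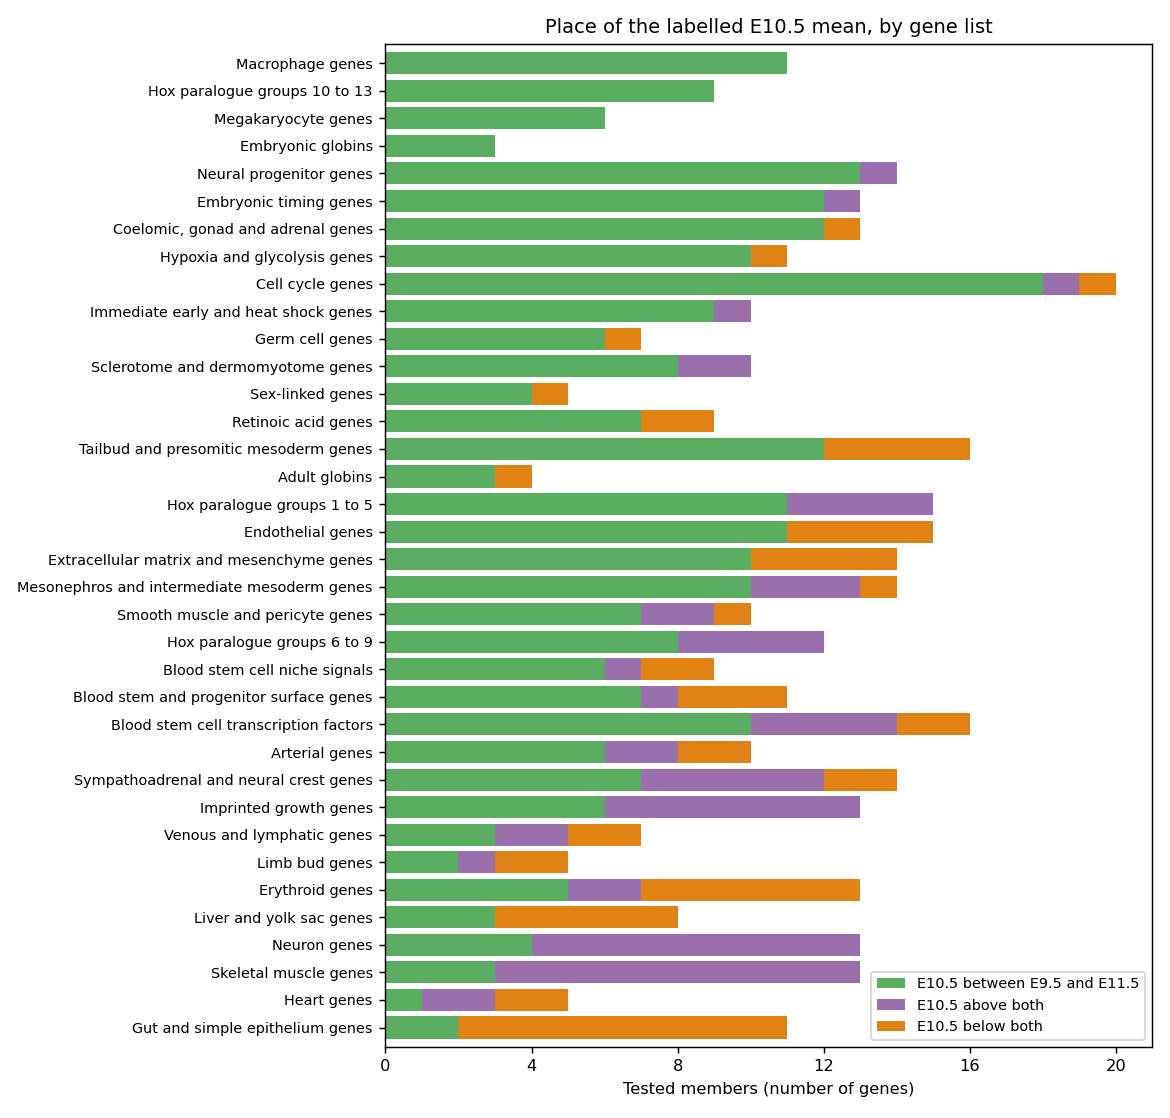
For each of 36 gene lists, the bar gives the number of tested members whose mean in the libraries labelled E10.5 lay between the means of E9.5 and E11.5 (green), above both (purple) or below both (orange). Lists are ordered by the share between. Macrophage genes and Hox groups 10 to 13 were between in every case, while skeletal muscle and neuron genes were mostly above both and gut and simple epithelium genes mostly below both.

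Endodermal genes were higher in the libraries labelled E11.5. Gut and simple epithelium genes were higher in 9 of 11 cases, lower in 1 and not past in 1, with a median of 1.22, and the E10.5 mean lay below both ends for 9 of the 11. The simple keratin gene Krt8 had 120 and 113 CPM in the libraries labelled E11.5, against 31.5 and 25.7 CPM in those labelled E9.5 (2.03 ± 0.09, adjusted p = 1.03e-09), with 24.4 and 27.6 CPM at E10.5. Cldn6, of embryonic epithelial junctions, had 49.6 and 54.6 CPM against 22.1 and 22.5 CPM (1.22 ± 0.08). Liver and yolk sac genes were higher in 7 of 8 tested cases and not past in 1, with a median of 4.72. They differed between the rounds. Afp, made by yolk sac and fetal liver, had 16.7 CPM in the first-round and 110 CPM in the second-round library labelled E11.5, against 0.872 and 0.512 CPM in those labelled E9.5. Its log2 change was 6.23 ± 0.38, and leaving out 1 library moved it between 4.25 (without the E9.5-labelled second-round library) and 7.73 (without the first-round library labelled E9.5). The retinol carrier gene Rbp4 had 11.49 and 30.5 CPM against 0.775 and 1.26 CPM (4.29 ± 0.22), while Alb, which encodes albumin, had 3 counts against 14 and was not tested. Heart genes were higher in 2 of 5 tested cases and not past in 3, with a median of 0.67 (2 higher and 2 lower without the first-round library labelled E11.5, and 4 and 0 without the second-round). The share over all tested genes was 30.3% higher and 31.3% lower. The atrial myosin gene Myh6 had 41.8 and 13.3 CPM against 2.29 and 4.21 CPM (2.96 ± 0.38, and 2.06 without the first-round library labelled E11.5 or 1.73 without that labelled E9.5, and 3.71 and 4.13 without the second-round libraries labelled E11.5 and E9.5). What these endodermal and heart levels owe to the borders of each dissection was not tested.

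Matrix and mesenchyme genes were lower in 10 of 14 cases, higher in 1 and not past in 3, with a median of -1.27. Eln, which encodes elastin of the arterial wall, had 1.12 and 1.26 CPM in the libraries labelled E11.5, against 50.2 and 15.5 CPM in those labelled E9.5 (-4.70 ± 0.38, and -3.67 without the first-round library labelled E9.5 or -3.97 without that labelled E11.5, and -5.43 without the E9.5-labelled second-round library). Col3a1 had 406 and 449 CPM against 1532 and 1120 CPM (-1.61 ± 0.11), and Pdgfra, the mesenchymal growth factor receptor, changed by -1.24 ± 0.06. Postn was the higher one, at 157 and 227 CPM against 94.8 and 101 CPM (0.94 ± 0.08). Retinoic acid genes were higher in 3 and lower in 6 of 9 cases, beside 30.3% and 31.3% of all tested genes. Their median was -0.60. The binding protein genes Crabp1 and Crabp2 were higher by 1.47 ± 0.08 and 1.76 ± 0.08, while the synthetic enzyme gene Aldh1a1 had 0.688 and 0.437 CPM against 5.42 and 7.40 CPM (-3.46 ± 0.30, and -4.15 without the first-round library labelled E11.5 or -2.87 without the second-round). Imprinted growth genes were lower in 9 of 13 cases, higher in 1 and not past in 3, with a median of -0.41 (6 lower without the block). Cdkn1c, which holds back the cell cycle, had 109 and 112 CPM in the libraries labelled E11.5, against 510 and 507 CPM in those labelled E9.5 (-2.21 ± 0.06), and Igf2 had 223 and 162 CPM against 411 and 323 CPM (-0.94 ± 0.08).

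Cell cycle genes were higher in 18 of 20 cases and not past in 2, with a median of 0.58. Rrm2, which makes the building blocks of DNA, had 552 and 571 CPM in the libraries labelled E11.5, against 250 and 302 CPM in those labelled E9.5 (1.03 ± 0.07), and the replication helicase gene Mcm7 had 563 and 511 CPM against 293 and 306 CPM (0.84 ± 0.07). Mki67 was not past, at 687 and 767 CPM against 734 and 722 CPM. Hypoxia and glycolysis genes were higher in 8 and lower in 3 of 11 cases, with a median of 0.55. The glucose transporter gene Slc2a1 had 772 and 615 CPM against 97.9 and 81.7 CPM (2.95 ± 0.07, adjusted p = 7.58e-12), and Ldha, which makes lactate, had 2369 and 2164 CPM against 616 and 631 CPM (1.86 ± 0.07). Vegfa was lower, at 71.4 and 70.2 CPM against 103 and 105 CPM (-0.56 ± 0.06). Immediate early and heat shock genes, which handling of tissue is known to raise, were lower in 8 of 10 cases and not past in 2, with a median of -1.83. Fos had 13.2 and 10.7 CPM in the libraries labelled E11.5, against 152 and 145 CPM in those labelled E9.5 (-3.64 ± 0.09), and Egr1 had 13.1 and 12.3 CPM against 150 and 137 CPM (-3.50 ± 0.09). The part of tissue handling in these differences was not tested.

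Of 7 tested germ cell genes, 2 were higher and 5 lower, with a median of -1.39 (2 lower with DESeq2, and 3 without the first-round library labelled E9.5). Pou5f1, of pluripotent and germ cells, had 1.03 and 1.07 CPM in the libraries labelled E11.5, against 3.36 and 2.16 CPM in those labelled E9.5 (-1.39 ± 0.28), while Prdm1 and Tfap2c, which other embryonic tissues use as well, were higher by 1.33 ± 0.15 and 1.32 ± 0.17. Among the largest decreases outside the lists, Agtr2, the angiotensin receptor of fetal mesenchyme, had 1 count against 2341 (ratio 1819, 326 to 71882.6), and Rtl3, a gene derived from a retrotransposon, had 2 against 756 (ratio 294, 81.0 to 2430). Of 5 sex-linked genes, 1 was higher, 3 lower and 1 not past, beside 30.3% higher and 31.3% lower over all tested genes. In the fit without the block none of the 5 was called, and with DESeq2 1 was higher and none lower. The median of the 5 was -0.73. Xist, the RNA that coats an inactivated X chromosome in females, had 457 and 613 CPM in the libraries labelled E11.5, against 0.194 and 473 CPM in those labelled E9.5. Y-linked genes were present in all 4 libraries, with Ddx3y at 38.8 and 30.0 CPM against 73.8 and 52.1 CPM. The 2 libraries labelled E9.5 thus differed in their share of female cells, if the second-round column is as assumed. The sex makeup of each library is not given in the labels. Without genes of the X and Y chromosomes, 10506 genes were called, 5169 higher and 5337 lower.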

How the data were processed

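RNA was extracted from flash-frozen tissue and sequenced as polyA-selected libraries, per the labels' protocols. The submitters' processing notes name STAR 2.5.0a, Trimmomatic 0.36, DESeq2 1.20.0, featureCounts 1.6.0 and GRCm38/mm10, with no role or strand setting. The deposited tables hold raw counts per gene made by the authors.

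The counts of the 6 AGM libraries were fitted in edgeR 4.0.16 (R 4.3.3) after filterByExpr and TMM scaling, with a mean for each labelled age and the round as a block, and tested by quasi-likelihood with Benjamini-Hochberg adjustment over all 17613 tested genes. The SE is the log2 change divided by the square root of F. Samples of the same round deviated together (r = 0.392 to 0.565 for each pair of ages), which the block uses. Against a group with no count, a fold is a lower bound, with the floor at 3 counts in the pair of libraries. Where a pair had 1 to 3 counts, the ratio is given with a 95% counting interval. Intervals and bounds cover counting error only. Of 407 listed genes, 405 had 1 identifier in the table and 389 were tested. Named outside the lists were the 12 largest called changes each way among annotated genes that did not overlap between the ages and averaged at least 5 CPM in one of them. The members and lists were chosen with earlier results of these data known. Promoters came from RefSeq (GRCm38.p6). The scripts were tested on simulated data. Alternatives included DESeq2 1.42.0, limma 3.58.1 voom, other scalings and filters, no block, and each library left out. Some listed genes are counted but not reported by name.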

Additional observations from a re-analysis of the deposited data

How the results depend on the processing

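The call count kept within 1.5 times of 10865 under every alternative but one, the test against a log2 change of 1 (glmTreat), which called 2129 genes, 592 higher and 1537 lower, 1895 of them with the E10.5 mean between. Without the round as a block (no pairing of libraries), 7953 genes were called, 3720 higher and 4233 lower. DESeq2 called 8528, voom 10881, median-of-ratios factors 10954, the fit with no filter on low counts 11210, and the fit of the 4 libraries alone 9927. Leaving out 1 library gave 9826 to 10710 calls, and then 1 age rests on a lone library assumed to vary like the others. Library totals (10967 calls) and leaving out X and Y genes (10506) were chosen after seeing the data. With 2 libraries of each age and 2 residual degrees of freedom, small changes and the erythroid, globin and endothelial lists hang on single libraries, and the cause was not tested.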
